A study of Arabidopsis thaliana with 15 samples.

Results

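Seedlings in which FAMA had been induced for 48 h were compared with seedlings in which FAMA-EAR had been induced for the same time, on 3 arrays against 3 of the 15 arrays of the series, over all 22746 probe sets that are not array controls. The arrays were chosen by their titles and no measured value entered the choice. RNA came from whole seedlings of Arabidopsis thaliana, ecotype Columbia, and was hybridised to Affymetrix ATH1 arrays, which read most genes of the plant with sets of short probes. FAMA 48 h seedlings carried an estrogen-inducible FAMA cassette, and FAMA-EAR 48 h seedlings an inducible construct in which FAMA is joined to the EAR repression domain. Both grew for 5 days under continuous light, spent 48 h on medium with 10 µM estrogen and were 7 days old at harvest, so the estrogen itself does not separate them. Control 48 h seedlings, used here for the uninduced level, were also 7 days old and were moved to fresh medium without estrogen. FAMA 4 h and control 4 h seedlings, with and without 10 µM estrogen for 4 h, were 5 days old, and each of these groups had 3 arrays too. The labels give no genotype for the controls, no promoter and no number of transgenic lines. They also do not say whether replicates came from separate plates or harvests, and the p-values then reflect the scatter of these arrays alone, part of which may be technical.

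FAMA is a basic helix-loop-helix (bHLH) transcription factor that acts at the last step of the stomatal lineage, where a guard mother cell divides once and its daughters become the guard cells around a pore. Proteins of this class bind DNA as dimers and can raise or lower the transcription of nearby genes. The EAR motif recruits corepressors, and fusing it to a factor is a common way to turn that factor into a repressor of its targets. The comparison asks which transcripts differ when the same factor is induced with and without such a domain.

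The signals are MAS5 values on a linear scale, 1 per probe set and array, and differences are given as log2(signal + 20), FAMA minus FAMA-EAR, from limma with Benjamini-Hochberg adjustment over all 22746 probe sets. The median signal of the 6 arrays lay between 188.2 and 199, and rank correlations within the groups were 0.975 to 0.985. Array controls that compare the 3' with the 5' end of a transcript, a sign of RNA integrity and labelling, differed between the groups. Averaged over actin and GAPDH, the log2 ratio of 3' to 5' signal was 0.199, 0.191 and 0.214 on the FAMA arrays and 0.558, 0.731 and 0.533 on the FAMA-EAR arrays, against 0.301, 0.495 and 0.297 on the control 48 h arrays. The groups did not overlap in it, and its part in the results below was not tested beyond a fit that holds the ratio as a covariate. The same ratio for ubiquitin did overlap, at -0.029 to 0.083 with FAMA and 0.027 to 0.094 with FAMA-EAR. On the control 48 h arrays the ubiquitin ratio was 0.306 to 0.387, above both induced groups. Of the markers of other cell types, 2 of 5 for mesophyll, 2 of 9 for root and 1 of 5 for trichomes had a named probe set. Of the 2 root genes, EXPA7 was not called, at -0.119. The root gene PYK10, a beta-glucosidase, read 12788, 10990.1 and 13270.0 with FAMA and 19945, 16914 and 17907 with FAMA-EAR, lower with FAMA by 0.56 (adjusted p = 0.000128, limma; 0.0560 with the ratio as a covariate), and the mesophyll genes STOMAGEN and RCA were lower too, with values below. Their part in the results was not tested. PYK10, STOMAGEN and RCA were above the median signal of every array, and the trichome gene TRY was near the lower end of the scale, between 7.3 and 83 on the 6 arrays. In RNA from whole seedlings, fewer cells of a type and less RNA per cell cannot be told apart.

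Transcript levels differed widely between the induced groups. Of 22746 probe sets, 5168 (22.7%) passed an adjusted p of 0.05, with 2522 (11.1%) higher and 2646 (11.6%) lower in FAMA than in FAMA-EAR seedlings. Without adjustment 7186 had a p under 0.05, and in 9361 (41.2%) the arrays of the 2 groups did not overlap. The large differences leaned to the FAMA side. At least 2-fold, 1057 (4.65%) passed, 650 (2.86%) higher and 407 (1.79%) lower; at least 4-fold, 144 were higher and 27 lower; at least 16-fold, 15 were higher and 0 lower. The median over all probe sets was -0.007. Calls were concentrated in bright probe sets, with 1.21% called among the 5687 dimmest by mean signal and 50.1% among the 5687 brightest. Of the brightest, 1243 were higher and 1607 lower. For lists of bright genes below, the shares over all probe sets are thus a low reference. With the 3' to 5' ratio as a covariate 914 passed, 472 higher and 442 lower. Within these 6 arrays the ratio and the group cannot be told apart. A call lost in that fit therefore does not by itself mean a smaller difference. PYK10 lost its call while its difference went from -0.56 to -0.78, whereas that of RCA went from -0.36 to -0.08.

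The uninduced level was read in the same fit. FAMA 48 h differed from control 48 h at 4913 probe sets (21.6%), 2409 (10.6%) higher and 2504 (11%) lower, and FAMA-EAR 48 h at 729 (3.2%), 317 (1.39%) higher and 412 (1.81%) lower. These comparisons share the control arrays, and each also holds the estrogen treatment, which the controls lacked.

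**Figure D1:**
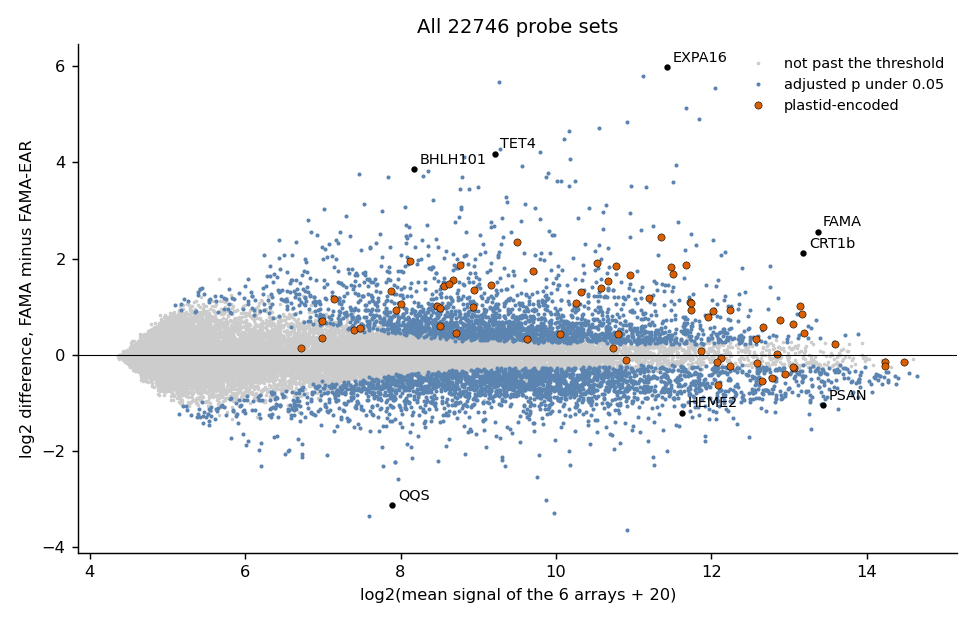
Each point is 1 of the 22746 probe sets, with the log2 difference between FAMA 48 h and FAMA-EAR 48 h against the log2 mean signal of the 6 arrays. Blue points passed an adjusted p of 0.05, orange points are the 69 plastid-encoded genes, 43 of them called higher, and the highest named point is EXPA16 at 5.98.

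The induced gene itself was far above its uninduced level in both groups and was higher without the repression domain. FAMA (AT3G24140, TAIR10.1 chromosome 3, 8715118 to 8718211) had signals of 18576, 16934 and 18563 on the FAMA arrays, 3457, 2726 and 2999 on the FAMA-EAR arrays and 255.0, 245.9 and 229.6 on the control 48 h arrays. The 3 groups did not overlap. The difference between the induced groups was 2.56 (SE 0.088, adjusted p = 2.06e-14, limma), or 5.89-fold in mean signal. The groups thus differ in FAMA signal as well as in the domain. Whether the probe set reads both constructs equally was not tested, nor how much of the signal came from the native gene.

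The named genes with the largest excess in FAMA seedlings were led by EXPA16 (AT3G55500, TAIR10.1 chromosome 3, 20574752 to 20576249), which encodes an expansin, a protein that loosens cell walls. Its signals were 5500.3, 5253 and 5486 with FAMA and 52.0, 73.2 and 75.4 with FAMA-EAR, while the controls read 138.3, 194.2 and 171.2. The induced groups lay on opposite sides of the controls without overlap. The difference was 5.98 (SE 0.145, adjusted p = 5.21e-17, limma), 81.0-fold in mean signal. With FAMA-EAR it was below the control by 1.11 on the log2 scale (adjusted p = 8.96e-05, limma).

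BHLH101 (AT5G04150, chromosome 5, 1138410 to 1139633), a bHLH factor of the iron deficiency response, read 506.0, 512.4 and 532.5 with FAMA and 3.5, 32.4 and 21.3 with FAMA-EAR, against 95.1, 83.7 and 120.5 in the controls. Again FAMA lay above and FAMA-EAR below every control array, and the difference was 3.86 (SE 0.277, adjusted p = 1.29e-09, limma). TET4 (AT5G60220, chromosome 5, 24248920 to 24250117), a tetraspanin of the cell membrane, read 1030.1, 1056 and 1225 with FAMA and 31.8, 45.6 and 49.8 with FAMA-EAR. Here the FAMA-EAR arrays overlapped with the controls, at 66.6, 80.3 and 33.1, and the difference was 4.18 (SE 0.286, adjusted p = 6.62e-10, limma).

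The other members of the 15 largest were mostly genes for which the annotation gives a locus and no symbol. AT2G34810 read 6220.4, 7081 and 7905 with FAMA and 216.3, 187.2 and 249.1 with FAMA-EAR. AT3G57600 read 3589, 3733 and 3809.6 with FAMA and 90.3, 114.2 and 132.9 with FAMA-EAR. Both groups stood clear of each other in each gene, with differences of 4.90 and 4.83, and FAMA-EAR lay near the controls, which averaged 190.1 and 131.0. AT4G36700 differed by 5.66, but its FAMA-EAR signals of 5.7, 2.0 and 3.0 are at the bottom of the scale, where the offset of 20 sets the size of the difference. AAE16, an acyl-activating enzyme, and MGL, a methionine gamma-lyase that breaks down methionine, differed by 3.70 and 3.62. The remaining 7 loci, AT3G58000, AT4G29570, AT1G61930, AT2G04460, AT1G16850, AT1G12030 and AT4G18280, lay between 3.62 and 4.22. AT1G61930, at 3.83, fell to 2.23 with the 3' to 5' ratio as a covariate and was no longer called (adjusted p = 0.152, limma). Of the 15, 2 were higher after 4 h of FAMA induction, on arrays that belong to neither 48 h group, namely EXPA16 by 0.72 and AT3G57600 by 0.84, against 1.15% of all probe sets.

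Among nuclear genes with a symbol, a selection made after the annotation was seen, the next largest excesses covered transcription, carbohydrate stores, walls and protein folding. WRKY42, a WRKY transcription factor, averaged 210.6 ± 23.2 (SD, n = 3) with FAMA and 8.4 ± 4.4 with FAMA-EAR, a call that was lost with the ratio as a covariate (adjusted p = 0.0652, limma). AtVEX1, a sugar transporter of the SWEET family, averaged 256.9 ± 31.3 and 17.3 ± 3.9 (SD, n = 3 each). APL4 and APL3, large subunits of the ADP-glucose pyrophosphorylase that makes the precursor of starch, differed by 2.87 and 2.77. Of these, AtVEX1 was also lower with FAMA-EAR than in the controls, by 1.02 on the log2 scale (adjusted p = 0.0358, limma). BGLU28, a beta-glucosidase, PMEPCRF, a pectin methylesterase, and CRT1b, a calreticulin that folds proteins in the endoplasmic reticulum, followed with differences of 2.71, 2.51 and 2.11. After 4 h of FAMA induction PMEPCRF was lower than in the 4 h controls, by 0.709 (adjusted p = 0.001312, limma). Of the 15 largest with a symbol, 1 was higher and 1 lower at 4 h. PGL34, a plastoglobule protein, BETA-VPE, a vacuolar processing protease, and CLE41, a signalling peptide of the vascular cambium, were each about 2 log2 units apart, at 2.01, 2.01 and 1.99. PGL34 lies next to AT3G58000 on chromosome 3, at 21475805 to 21478187 and 21474870 to 21475750.

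**Figure D2:**
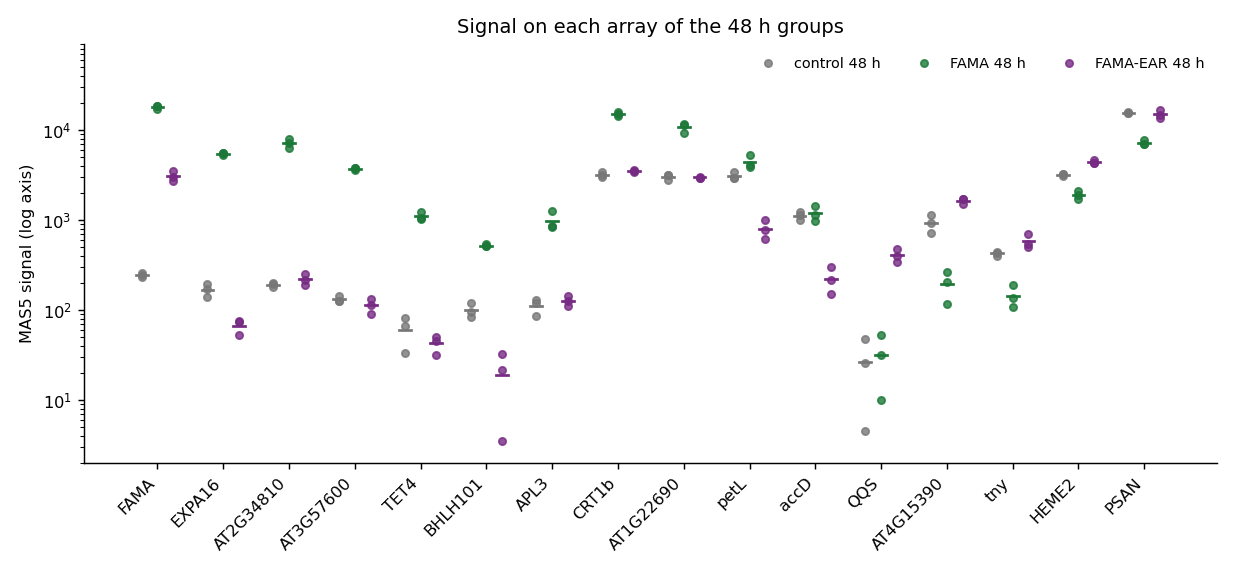
MAS5 signal on a log axis for 16 genes, with 1 point per array and a bar at the mean of each 48 h group. FAMA and EXPA16 stand far above FAMA-EAR in the FAMA arrays, petL and accD lie below the controls with FAMA-EAR, and HEME2 and PSAN are lower with FAMA.

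The genes with the largest excess in FAMA-EAR seedlings were less extreme. QQS (AT3G30720, TAIR10.1 chromosome 3, 12349047 to 12349933), a small gene known for its effect on starch content, read 53.2, 31.5 and 9.9 with FAMA and 479.7, 340.8 and 394.4 with FAMA-EAR. The controls, at 25.7, 47.9 and 4.5, overlapped with FAMA, so that only FAMA-EAR stood apart. The difference was -3.12 (SE 0.393, adjusted p = 3.26e-06, limma) and FAMA-EAR exceeded the control by 3.31 (adjusted p = 2.80e-05, limma). AT1G43590 read 61.2, 43.1 and 50.8 with FAMA, 371.5, 427.6 and 421.0 with FAMA-EAR and 33.0, 11.8 and 2.6 in the controls. Its 3 groups did not overlap, and FAMA too was above the control, by 1.08 (adjusted p = 0.0180, limma). Both calls were lost with the 3' to 5' ratio as a covariate, at adjusted p = 0.149 and 0.128.

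Of the 15 largest on this side, 12 were called below the control with FAMA, against 11% of all probe sets. With FAMA-EAR, 11 of the 15 were called above the control, against 1.39%. The 15 were picked by the difference between the induced groups. AT4G15390 read 260.4, 201.6 and 114.8 with FAMA, 1708, 1698 and 1502 with FAMA-EAR and 1142, 722.2 and 915.5 in the controls. The 3 groups did not overlap, and the difference was -3.02 (SE 0.207, adjusted p = 6.62e-10, limma). The factor tny, of the AP2/ERF class, read 189.8, 134.5 and 106.3 with FAMA and 502.1, 544.6 and 699.6 with FAMA-EAR, a difference of -1.90. AT1G70820 averaged 372.8 ± 37.2 with FAMA, 1906 ± 204 with FAMA-EAR and 1091 in the controls, again 3 separate levels. The other 10 of the 15, all without a symbol, lay between -1.78 and -2.32 and included AT3G62550, AT4G39675, AT5G62360, AT5G51010 and AT5G02160. Of these AT4G39675 was not called between FAMA and the control (adjusted p = 0.411, limma) and was higher with FAMA-EAR, by 1.72 (adjusted p = 0.0136, limma), and AT1G13650 of the 10 lost its call with the ratio as a covariate. At 4 h of FAMA induction 4 of the 15 were higher and 2 lower than in the 4 h controls, against 1.15% and 1.77% of all probe sets. AT4G15390 and tny were the lower ones, by 0.86 and 0.94. The higher ones were AT1G70820, AT5G62360, AT3G62550 and AT5G02160, by 1.414, 1.273, 0.925 and 0.393. All 4 were below the control with FAMA at 48 h, so the sign of their change differed between the times.

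Genes with a symbol on this side included several of the chloroplast. HEME2, the uroporphyrinogen decarboxylase of heme and chlorophyll synthesis, TAPX, the thylakoid ascorbate peroxidase, PIFI, a chloroplast protein tied to the NDH complex, and CCB3, which helps attach heme to cytochrome b6, differed by -1.21, -1.21, -1.17 and -1.13. TAPX read 1051, 1065 and 1088 with FAMA, 2608, 2505 and 2392 with FAMA-EAR and 1676, 1740 and 1589 in the controls, so each induced group lay on its own side of the controls. SWEET17, a fructose carrier of the vacuole, EXPA8, an expansin, and scpl35, a serine carboxypeptidase-like protein, differed by -1.41, -1.22 and -1.20. The defence peptides THI2.2, a thionin, and PDF2.1, a defensin, differed by -1.58 and -1.40, the cold-regulated COR15B by -1.31, and CCL, AR781 and MSRB6 by -1.25, -1.13 and -1.13. PDF2.1 averaged 298.5 ± 18.8 with FAMA, 855.4 ± 311 with FAMA-EAR (SD, n = 3 each) and 358.8 in the controls. With the ratio as a covariate COR15B, EXPA8, scpl35, PIFI, AR781 and MSRB6 were no longer called, with adjusted p between 0.0793 and 0.528. After 4 h of FAMA induction, 5 of the 15 largest with a symbol on this side were higher and 1 lower, against 1.15% and 1.77%. THI2.2, CCL, PIFI and CCB3 were higher at 4 h, by 0.942, 0.912, 0.754 and 0.689, and below the control with FAMA at 48 h. COR15B was higher at 4 h by 1.29 and was not called against the control at 48 h.

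All 4 guard cell genes with a named probe set, of 20 listed, were higher with FAMA, against 11.1% of all probe sets. The GC1 locus of that list, AT1G22690 (TAIR10.1 chromosome 1, 8027126 to 8028168), whose transcript is used as a marker of guard cells, read 11730 on the first FAMA array, 9282 on the second and 11394 on the third. On the FAMA-EAR arrays it read 2907, 3031 and 2938, level with the controls at 2758, 3129 and 3158. The difference was 1.85 (SE 0.107, adjusted p = 3.98e-11, limma). CHX20, a cation and proton exchanger of guard cells, read 458.4, 469.5 and 479.3 with FAMA and 184.6, 213.0 and 190.7 with FAMA-EAR, a difference of 1.18. AT4G14480, listed as BLUS1, a kinase of the blue light response of stomata, read 297.2, 410.2 and 378.9 with FAMA and 143.0, 116.3 and 111.8 with FAMA-EAR, a difference of 1.41. AT1G23200, a pectin methylesterase locus of the list, differed by 0.70, and its call was lost without any 1 of 5 of the 6 arrays, at adjusted p between 0.0913 and 0.129. The ratio covariate left AT1G22690 and CHX20 as called.

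Of 21 listed regulators of the stomatal lineage, 4 could be read. SPCH, the bHLH factor that starts the lineage, read 109.5, 126.6 and 176.2 with FAMA and 220.4, 225.7 and 303.0 with FAMA-EAR, and STOMAGEN, a peptide from the mesophyll that raises stomatal number, read 440.7, 488.8 and 462.5 against 757.9, 891.2 and 789.9. Both were lower with FAMA, by 0.79 (adjusted p = 0.00437, limma) and 0.78 (adjusted p = 1.01e-05, limma), and in both FAMA-EAR overlapped with the controls. MUTE, the factor that acts between SPCH and FAMA, had signals of 4.9 to 27.3 on the 6 arrays and was not called. Neither SPCH nor STOMAGEN was called with the ratio as a covariate (adjusted p = 0.206 and 0.0802, limma). Their differences in that fit were not smaller, at -1.15 and -0.83.

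Most genes of the plastid genome were higher with FAMA than with FAMA-EAR. Of its 69 genes with a probe set, 43 were higher and 3 lower in FAMA than in FAMA-EAR seedlings, with a median of 0.84, against 11.1% and 11.6% and a median of -0.007 over all probe sets. Against control 48 h the median of these genes was -0.98 with FAMA-EAR, with 45 lower, and -0.14 with FAMA, with 3 lower and 2 higher, where both comparisons share the control arrays. In 43 genes every FAMA-EAR array lay below every FAMA array, against 20.5% of all probe sets, and in 48 below every control array, against 11.4%. A fit with the 3' to 5' ratio gave 22 higher and a median of 1.05, and the 3 lower calls were lost.

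petL, a small subunit of the cytochrome b6f complex (TAIR10.1 plastid genome, 65712 to 65807), had the largest difference of these genes. It read 4038, 5189.5 and 3898 with FAMA, 989.1, 769.7 and 614.2 with FAMA-EAR and 3369.9, 2904 and 2911 in the controls. The FAMA-EAR arrays stood below all others by a wide gap, and the difference was 2.45 (SE 0.153, adjusted p = 1.47e-10, limma). accD, the plastid-encoded subunit of acetyl-CoA carboxylase for fatty acid synthesis (57075 to 58541), read 978.4, 1443 and 1129.5 with FAMA and 299.9, 214.4 and 150.9 with FAMA-EAR, a difference of 2.34 (SE 0.171, adjusted p = 1.61e-09, limma). ndhH, a subunit of the NDH complex of cyclic electron flow (122011 to 123192), read 226.7, 574.9 and 484.5 against 106.7, 103.0 and 60.9, a difference of 1.96.

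Grouped by complex, the share of called genes was uneven. The photosystem I list, which holds ycf3 and ycf4 beside the psa genes, had 6 of 7 higher, with a median of 1.39. The 1 not called was ycf3, at 0.338, and the median is the value of ycf4. The iron-sulfur subunit psaC read 620.1, 729.9 and 637.5 with FAMA and 160.4, 159.2 and 183.8 with FAMA-EAR. The NDH complex had 8 of 10 higher and the ATP synthase 4 of 6, with medians of 1.19 and 1.30. Of the 4 genes of the plastid-encoded RNA polymerase, which transcribes most photosynthesis genes of the plastid, rpoB, rpoC1 and rpoC2 were higher and rpoA was not called, at -0.40. rpoC1 read 972.4, 1551 and 1293 with FAMA and 418.2, 312.3 and 352.8 with FAMA-EAR. The 6 genes outside these groups were all higher, from ccsA at 0.78 to accD at 2.34, with rbcL, the large subunit of Rubisco, at 1.45. Photosystem II was more mixed, with 6 of 15 higher and 1 lower and a median of 0.32. Ribosomal protein genes had 8 of 15 higher and 2 lower, and cytochrome b6f 2 of 6 higher. The 3 genes that were lower were psbZ, rpl22 and rps3, at -0.64, -0.55 and -0.47. psbZ, a small photosystem II protein, read 2827, 3285 and 4131 with FAMA and 5499, 5440.3 and 4863 with FAMA-EAR. The rps3 call was lost under quantile normalization and without the first FAMA array (adjusted p = 0.0933 and 0.0675, limma).

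Neighbours on the plastid genome tended to share a call, a pattern described after the values were seen and given without a test. From ccsA to rps15 (114461 to 123562) all 9 measured genes were higher with FAMA, in the order ccsA, ndhD, psaC, ndhE, ndhG, ndhI, ndhA, ndhH and rps15, at 0.78 to 1.96. From psbA to rpoB (383 to 26329) all 13 were higher, at 0.32 to 1.91, with the atpA, atpF, atpH and atpI genes and the rpo genes among them, though the calls of psbK, psbI, rps16 and atpI were each lost without the third FAMA-EAR array and without at least 1 FAMA array. From rbcL to petA (54958 to 62619) the 6 measured genes were higher too, at 0.91 to 2.34. In between lay runs with no call. The 4 neighbours psbJ, psbL, psbF and psbE (63538 to 64322) lay between -0.27 and -0.12, and ndhC, atpE and atpB (50001 to 54156) between -0.23 and 0.01. ATP synthase genes thus fell in both kinds of run, atpA at 1.86 and atpB at -0.16. Their mean signals with FAMA were 5155 and 21556. Over the plastid genes, the median signal of the 23 not called was 4062.5 with FAMA and 4523.6 with FAMA-EAR. For the 43 called higher it was 2319.3 and 791.0. The part of signal level in the pattern was not tested. Neighbouring plastid genes are often transcribed together, so they are not separate measurements.

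**Figure D3:**
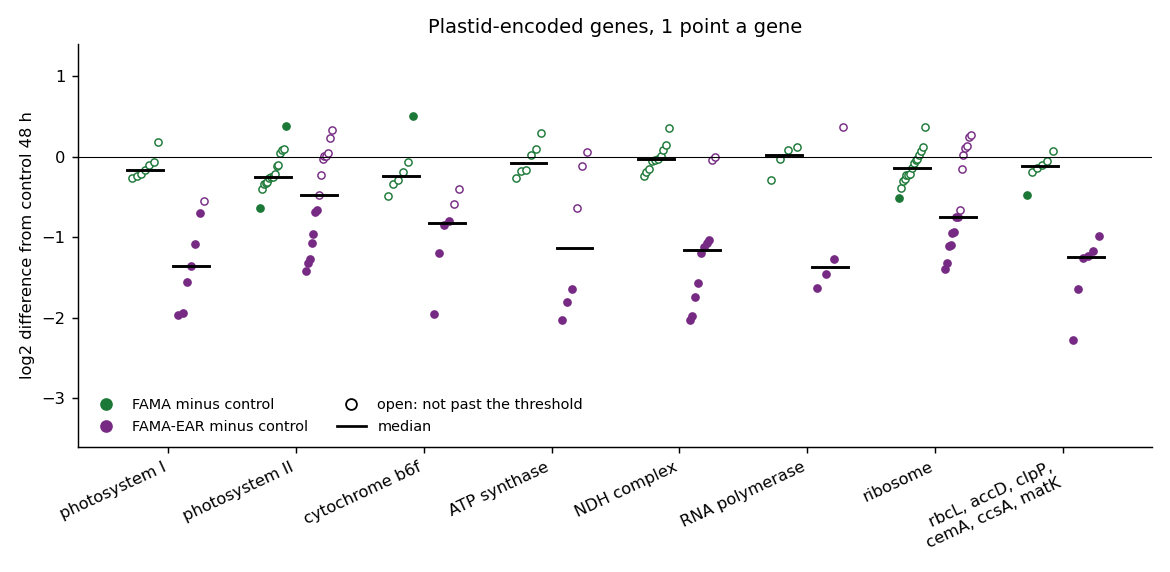
Log2 difference from control 48 h of each of the 69 plastid-encoded genes, by complex, with FAMA 48 h in green, FAMA-EAR 48 h in purple, filled points past an adjusted p of 0.05 and bars at the medians. FAMA lies around 0 in every group, while FAMA-EAR medians reach below -1 in photosystem I, the ATP synthase, the NDH complex, the RNA polymerase and the last group. The photosystem I group also holds ycf3 and ycf4.

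The plastid level and the 3' to 5' ratio both set the FAMA-EAR arrays apart. The mean log2 level of the 69 plastid genes was 10.81, 11.19 and 11.07 on the FAMA arrays, 10.44, 10.25 and 10.05 on the FAMA-EAR arrays and 11.02, 11.25 and 11.13 on the control 48 h arrays. The FAMA-EAR arrays were the lowest in level and the highest in ratio of the 9. Among the controls the array with the highest ratio, 0.495, also had the highest plastid level, 11.25. Of the FAMA-EAR arrays, the one with the highest ratio, 0.731, had the middle level. The order of arrays within a group was not tested, and groups this small cannot show whether the level follows the ratio. The part of the ratio in the plastid result was not tested further.

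**Figure D4:**
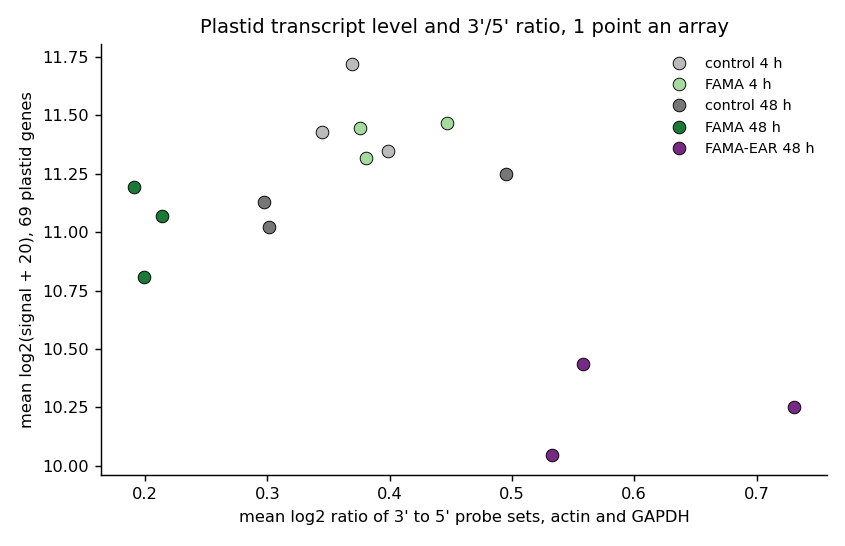
Mean log2(signal + 20) of the 69 plastid-encoded genes against the log2 3' to 5' signal ratio averaged over actin and GAPDH, 1 point for each of the 15 arrays. The 3 FAMA-EAR arrays lie at ratios from 0.533 to 0.731 and levels from 10.05 to 10.44, away from the other groups.

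Nuclear genes of photosynthesis had the opposite sign. Of 17 nuclear-encoded proteins of the photosystems, antenna, NDH complex and ATP synthase, 13 were lower with FAMA, with a median of -0.61, against 11.6% lower over all probe sets. This list and the tetrapyrrole, Calvin cycle and assembly lists were chosen with earlier results of these data known. Their counts are descriptive only. None of these 17, nor of the tetrapyrrole, Calvin cycle and assembly lists below, was higher with FAMA in limma, also at an unadjusted p under 0.05. PSAN, a photosystem I subunit on the lumen side (AT5G64040, chromosome 5, 25628521 to 25629708), read 7021, 7663 and 6911 with FAMA, 14570.3, 16567 and 13648 with FAMA-EAR and 15437, 15468 and 15722 in the controls. FAMA stood below both other groups, which overlapped, and the difference was -1.05 (SE 0.100, adjusted p = 8.33e-08, limma). LHCB4.1, LHCB4.2 and LHCB4.3, minor antenna proteins of photosystem II, differed by -0.77, -0.78 and -1.09, PSB27, a repair factor of photosystem II, by -0.99, and NdhL, an NDH subunit, by -1.01. Once the ratio was held as a covariate, 2 of the 17 were called lower, PSAN missed the threshold at adjusted p = 0.0772 (limma), and the median was -0.44.

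Chlorophyll and heme synthesis genes were lower with FAMA at 11 of 15 members, with a median of -0.65. HEME2 (AT2G40490) read 1727, 2071 and 1895 with FAMA, 4280, 4593 and 4317 with FAMA-EAR and 3239, 3235 and 3097 in the controls. Its 3 groups did not overlap, and FAMA-EAR exceeded the controls by 0.46 (adjusted p = 0.00117, limma). HEME2 was not typical in this. Against control 48 h, 1 of the 15 was higher with FAMA-EAR and the median was 0.10. With FAMA, 11 were lower and the median was -0.55, where both comparisons share the control arrays. CHLI2, a subunit of the magnesium chelatase, CHLM, which methylates magnesium protoporphyrin, and PORB, the light-dependent protochlorophyllide reductase, differed by -1.07, -0.80 and -0.92. Genes not called were the minor copies HEMA2, HEMA3, hemb2 and hemf2. The SIRB difference of -0.34 lost its call without any 1 of 5 of the 6 arrays. The ratio covariate gave 7 of 15 lower.

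All 4 genes of the Calvin cycle list were lower, with a median of -0.77. PRK, the phosphoribulokinase, read 7845, 8146 and 8127 with FAMA and 15676, 12414.5 and 13286 with FAMA-EAR, a difference of -0.77, and SBPASE, the sedoheptulose bisphosphatase, also differed by -0.77. RCA, the Rubisco activase, differed by -0.36, and its call was lost under quantile normalization (adjusted p = 0.985, limma) and without the first FAMA-EAR array (adjusted p = 0.0584, limma). Assembly factors of thylakoid complexes had 6 of 7 lower and a median of -0.75, among them HCF101 for photosystem I and PAM68 for photosystem II at -0.75 and -0.72. Plastid RNA editing factors were at the background, with 1 of 9 lower, CRR21 at -1.01, and a median of -0.09, a call that was lost with the ratio held. Holding the ratio, 2 of the 4 Calvin cycle genes and 2 of the 7 assembly factors were called lower.

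**Figure D5:**
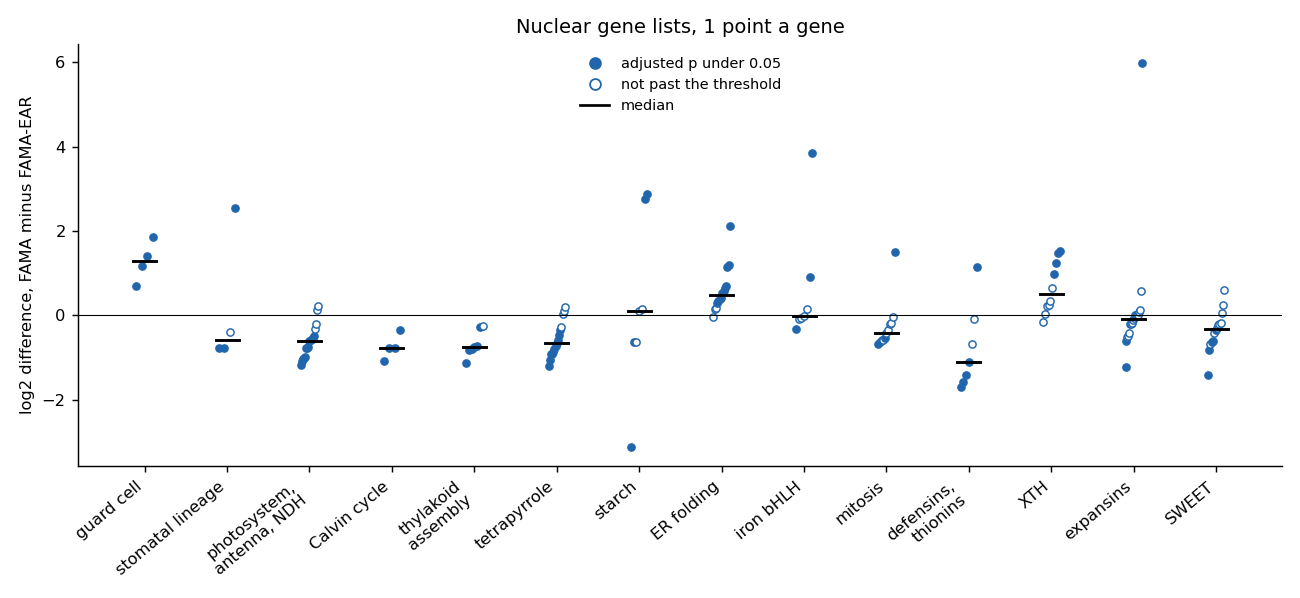
Log2 difference between FAMA 48 h and FAMA-EAR 48 h of each member of 14 lists of nuclear genes, filled where the adjusted p was under 0.05, with bars at the medians. Guard cell and endoplasmic reticulum genes lie above 0, and the photosystem, Calvin cycle, assembly and tetrapyrrole lists lie mostly below it.

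Of 14 genes of folding and quality control in the endoplasmic reticulum, 11 were higher with FAMA and the median was 0.47, against 11.1% higher and a median of -0.007 over all probe sets. None was lower, also at an unadjusted p under 0.05 (limma). This list too was chosen with earlier results of these data known, and its counts are descriptive only. CRT1b (AT1G09210, chromosome 1, 2972638 to 2977002) read 14396, 15067 and 15879 with FAMA, 3364, 3489.6 and 3569 with FAMA-EAR and 3368, 2998 and 3139 in the controls. FAMA was above all others, and the difference was 2.11 (SE 0.083, adjusted p = 1.49e-13, limma). ATERDJ3B, a cochaperone, read 3107, 3064 and 2921 with FAMA and 1322, 1391 and 1246 with FAMA-EAR, a difference of 1.19. The membrane-bound factors BZIP17, BZIP28 and BZIP60, which switch on chaperone genes under folding stress, differed by 1.14, 0.65 and 0.69. OS9, a lectin that marks misfolded glycoproteins for degradation, and UBC32, a ubiquitin-conjugating enzyme of the same route, differed by 0.58 and 0.53. The smaller differences of DER1, PDIL5-1, ATERDJ2A and ATERDJ2B, at 0.29 to 0.41, were each lost when array medians were set equal and also without the third FAMA-EAR array, at adjusted p between 0.0561 and 0.144 (limma) for the latter. In the fit with the ratio 2 of the 14 were called higher and the median was 0.34.

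Genes of iron deficiency were higher at 3 of 4 readable members of 19 listed, with a median of 2.2, and 3 were called in the fit with the ratio too. Besides BHLH101 they were AT1G47400, the IMA1 locus of the list, a small peptide gene, and PYE, a bHLH repressor of iron genes. AT1G47400 read 5030.2, 3735 and 3781 with FAMA, 471.8, 236.4 and 390.6 with FAMA-EAR and 561.6, 667.8 and 671.7 in the controls. It was higher with FAMA and lower with FAMA-EAR than in the controls, with no overlap between groups, and differed by 3.48 (SE 0.176, adjusted p = 5.42e-12, limma). PYE read 471.1, 439.0 and 427.2 against 220.6, 229.0 and 229.7, a difference of 0.92. The bHLH factors that act above them, ILR3, bHLH104, bHLH115 and bHLH34, differed by -0.09 to 0.14 and were not called. Another of that list, bHLH121, was lower by 0.33, a call that was lost without the first FAMA array, the third FAMA array, the first FAMA-EAR array or the second FAMA-EAR array, at adjusted p between 0.121 and 0.165 (limma), and with the ratio as a covariate.

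Starch genes split. APL3 (AT4G39210) read 860.4, 832.4 and 1244 with FAMA, 141.7, 124.1 and 109.7 with FAMA-EAR and 129.4, 119.0 and 84.5 in the controls, so FAMA alone stood apart. APL4 read 654.1, 718.5 and 833.1 against 65.7, 109.7 and 78.3. QQS and DPE1, an enzyme that recycles maltotriose from starch breakdown, were lower with FAMA, DPE1 by 0.64, and the other 3 of 7 were not called. Of these 4 calls, those of APL3 and APL4 stood with the ratio as a covariate.

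Genes of cell wall growth are given against 11.1% higher and 11.6% lower over all probe sets. Families hold only genes found by symbol, and 8730 probe sets had no gene in the annotation. The counts therefore do not cover whole families. EXPA16 was the only 1 of 18 expansins that was higher, while EXPA8 and EXPA15 were lower and the median was -0.09. Of 10 xyloglucan endotransglucosylases, which cut and rejoin the wall polymer xyloglucan, XTH16, XTH32, XTH18 and XTH19 were higher, at 1.52, 1.48, 1.24 and 0.97, and none was lower, also at an unadjusted p under 0.05 (limma). XTH32 read 3850.5, 3722 and 4043 with FAMA and 1221, 1329 and 1613 with FAMA-EAR. CSLC04, which makes the backbone of xyloglucan, read 2178, 2047 and 2057 with FAMA and 819.4, 938.5 and 913.1 with FAMA-EAR, a difference of 1.22, and 3 of 5 genes of its family were higher. PMEPCRF was the only 1 of 4 pectin methylesterases of its list that was called, at 5679, 5145 and 6541 with FAMA against 1142, 880.3 and 986.6. GH9B12 was the only 1 of 15 endoglucanases that was higher, at 1.69, and 2 were lower. With the ratio as a covariate 2 of the 10 XTH genes and 1 of the 5 CSLC genes were called higher, EXPA16 and PMEPCRF were still called, and the calls of EXPA8, EXPA15 and all 3 endoglucanases were lost.

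Of 11 mitosis genes 4 were lower and 1 higher, with a median of -0.43, against 11.6% lower and 11.1% higher over all probe sets. AUR1, an Aurora kinase of dividing cells, read 434.8, 396.4 and 420.2 with FAMA and 641.0, 673.9 and 710.1 with FAMA-EAR, a difference of -0.67 (SE 0.122, adjusted p = 0.000275, limma). CDC27a, a subunit of the complex that ends mitosis, read 214.0, 174.0 and 197.9 against 58.3, 41.6 and 70.2, a difference of 1.502, while its close relative HBT was not called, at -0.03. The other calls, AUR2, AUR3 and KINESIN-12B, at -0.53 to -0.62, were each lost when the third FAMA array was left out, at adjusted p between 0.0514 and 0.0791, and AUR3 and KINESIN-12B also without several other arrays. When the ratio was held, AUR1 was the only 1 of the 11 called.

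Hormone, defence and transport families are set against the same shares of all probe sets, 11.1% higher and 11.6% lower. These too hold only members found by symbol and do not cover whole families. Of 16 genes of auxin conjugation, AUX/IAA repressors and auxin synthesis, 2 were lower, GH3.9 and WES1 at -1.29 and -0.42, a share close to that of all probe sets. Of 7 defensins and thionins 4 were lower and PDF1.4 was higher, at 1.15, a call that was lost with signals floored at 50 (adjusted p = 0.0663, limma). Of 14 SWEET sugar carriers named by that symbol 5 were lower, among them SWEET16 and SWEET11 at -0.83 and -0.60, whereas AtVEX1 of the same family was higher. Both GAMMA-VPE and BETA-VPE of 4 vacuolar processing proteases were higher, at 0.86 and 2.01. WRKY6 and WRKY42, close relatives, were the 2 of 6 WRKY factors that were called, both higher, at 1.98 and 3.03. TET4 was the only 1 of 15 tetraspanins that was higher, and 3 were lower. Holding the 3' to 5' ratio ended the calls of GH3.9, WES1, PDF1.4, WRKY42 (adjusted p = 0.0652, limma), SWEET16, SWEET11 and the 3 lower tetraspanins. It left 2 defensin and thionin genes and 1 SWEET gene lower, and TET4, WRKY6 and both VPE genes higher.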

How the data were processed

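RNA from whole seedlings was labelled and hybridised to ATH1 arrays, per the labels' protocols. The deposited values are signal intensity on a linear scale, made by the authors with MAS5, per the submitters' processing notes; its version is not given in the sources used here. Each array had been scaled to a common level: its mean without the 2% of probe sets at either end was 500.04 to 500.048, so differences are relative to that level. Detection calls were not used here, and array number limits the precision.

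The 64 control probe sets were left out of the tests. log2(signal + 20) was fitted in limma 3.58.1 (R 4.3.3) with a mean for each of 5 groups of 3 arrays, 10 residual degrees of freedom, variance moderation with a trend, two-sided tests and Benjamini-Hochberg adjustment over 22746 probe sets at 0.05. SE values are from this fit. A simulation with independent normal noise looked at its calls and their signs, and did not check the SE values or an error shared by arrays. A comparison of 3 arrays with 3 cannot go below an exact two-sided p of 0.1 for a single gene, so no other test of single genes is given. Group labels came from titles. Alternatives were other offsets, scalings, filters, variance models, array subsets, the replicate block and the 3' to 5' ratio as a covariate.

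Of the probe sets, 13513 had 1 gene in the platform annotation, 503 several and 8730 none; 13436 were found in a TAIR10.1 gene table, which gave coordinates. A gene is read by its brightest probe set. FAMA is FMA in that annotation. Named genes were FAMA, the 15 largest differences in each direction among called probe sets with 1 gene, no overlap between groups and a mean signal of at least 200 in the higher group, and the same 15 in each direction among nuclear genes with a symbol. Members, lists and the second rule were chosen with earlier results of these data known. Of the lists by locus, those for jasmonate, nuclear genes of plastid transcription, cutin and wax, epidermis, xylem, phloem and myrosin cells had 0 members with a named probe set. Promoter sequence was not analysed here. Python 3.11.15 with matplotlib 3.10.9 drew the figures.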

Additional observations from a re-analysis of the deposited data

Results flagged for a closer look

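The actin and GAPDH control probe sets are used by no comparison of transcripts. Their log2 ratio of 3' to 5' signal averaged 0.607 on the FAMA-EAR 48 h arrays, and each of the 3 was above every control 48 h array. Actin alone gave 1.161, 1.146 and 1.075 against 0.819, 0.956 and 0.957 in the controls. GAPDH alone overlapped, at -0.045, 0.317 and -0.01 against -0.217, 0.035 and -0.363. For ubiquitin the order was the other way, at 0.027 to 0.094 with FAMA-EAR and 0.306 to 0.387 in the controls. The middle actin probe set read 7244.7 to 7847 with FAMA-EAR, 8594 to 9188 in the controls and 12243 to 12417 with FAMA, so the actin signal away from the 3' end differed between all 3 groups.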

How the results depend on the processing

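Of the settings tried, the 3' to 5' ratio as a covariate moved the count of called probe sets most, to 914, 472 higher and 442 lower, with 662 at least 2-fold. An offset of 100 left 582 at least 2-fold, by the construction of the scale. Of 183 called genes described, the covariate kept 87, lost 92 and turned 4, namely SIRB to 0.198, ATERDJ2A to -0.032, TET10 to 0.137 and SWEET2 to 0.066, and it turned the WRKY median to -0.002 and the endoglucanase median to -0.126, which a floor of 50 put at 0.000; the cause was not tested. The 20 other settings turned 0 and lost at most 18 each. Leaving out 1 array of either group gave 4094 to 4433 called probe sets, 1976 to 2168 higher and 2118 to 2285 lower, 1009 to 1069 at least 2-fold, and 2.48 to 2.65 for FAMA. Deviations of arrays with the same replicate number correlated at -0.019, 0.015 and 0.003, so the numbers did not pair the arrays; with the replicate block 5218 were called, 2541 higher and 2677 lower, 1056 at least 2-fold, and FAMA stayed at 2.56. Counts rest on the 15-array spread: the 6 arrays alone gave 6305. Signals near the floor of the scale limit fold sizes of dim genes, and 1.21% of the 5687 dimmest probe sets were called.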
